A study of Homo sapiens with 12 samples.

Results

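Centrosomal protein genes were taken as every gene whose symbol is CEP followed by a number, together with PCNT, CDK5RAP2, NIN, PLK4, STIL, SASS6, PCM1 and CNTROB. This gave 47 of the 19516 genes with a symbol, and all 47 were among the 14133 genes that passed the filter on low counts. They were followed by sequencing of poly-A RNA in MDA-MB-231 and HCC1937, 2 human lines from triple-negative breast tumours that are both labelled wild type. MDA-MB-231 was kept in DMEM without extract (control, libraries E1 to E3) or with 140 µg/mL of an aqueous extract of the plant Kalanchoe pinnata for 72 h (E7 to E9). HCC1937 was kept in RPMI 1640 as control (E25 to E27) or with 66 µg/mL of the extract for 72 h (E31 to E33). Each of the 4 groups held 3 libraries, and line, medium and extract concentration cannot be told apart. The labels do not say that the libraries of a group came from separate cultures, so p-values measure how far these libraries scatter, and that scatter may be technical. The family was selected on the log2 fold changes of extract against control in these same libraries, so their extract values are given as a description, with counts set beside those of all genes and with no p-value of their own.

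The centrosome is the main microtubule organizing centre of animal cells and consists of centrioles set in pericentriolar material. A new centriole is begun once per cell cycle next to each old one: CEP192 and CEP152 bring the kinase PLK4 to the mother centriole, PLK4 acts on STIL, and STIL with SASS6 builds the cartwheel that seeds the new centriole. PCNT and CDK5RAP2 form the scaffold that docks gamma-tubulin complexes, PCM1 organizes the satellite granules that ferry proteins to the centrosome, and appendage proteins let the older centriole anchor microtubules and template a cilium. Breast tumours often carry extra centrosomes.

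Library totals ran from 16170342 to 31337259 rounded counts, and levels are given as TMM-scaled CPM, which sets libraries of unequal depth on one scale. The level of 3 counts lay between 0.0990 and 0.213 CPM on this scale. Library E7 stood apart from its group: its Spearman correlation across genes was 0.967 with E8 and 0.966 with E9, against at least 0.997 for every other pair within a group, and mitochondrial genes took 10.7% of its counts against 4.63% in E8 and 4.78% in E9. Results of MDA-MB-231 and of the difference between lines that rest on E7 are therefore also given without it. All groups share an estimate of each gene's spread. The scatter of E7 therefore also enters the SE of HCC1937 and of the untreated lines. The groups come from the sample titles, because the cell line tag equals the line in the title in 2 of the 12 libraries. Line markers fitted the titles: the epithelial genes CDH1 and KRT5 had no reads in any MDA-MB-231 library, and in HCC1937 controls the 8 epithelial markers summed to 4375 to 4522 CPM against 729.8 to 777 CPM in MDA-MB-231 controls. In the order MDA-MB-231 control, MDA-MB-231 extract, HCC1937 control and HCC1937 extract, 5 stromal markers summed to 22.4 to 26.5, 4.69 to 9.39, 29.3 to 31.5 and 6.63 to 8.19 CPM, with DCN at 0 throughout. The 5 immune markers summed to 303 to 318, 426 to 527, 62.9 to 64.5 and 176 to 179 CPM, of which CD68 made up nearly all, while PTPRC and CD3E were under the filter. The 3 endothelial markers summed to 1.04 to 1.38, 0.356 to 0.85, 23.9 to 24.5 and 17.5 to 19.9 CPM. Proliferation markers (22 genes) summed to 3289.7 to 3332 CPM in MDA-MB-231 controls and 3630.1 to 3721 CPM with extract, and to 5045 to 5151 and 5780.2 to 5792 CPM in HCC1937. The part of these markers in the results below was not tested.

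Most centrosomal genes were lower with extract in both lines. Together the 47 genes took 0.198 to 0.212% of all counts in MDA-MB-231 controls and 0.0519% (E7), 0.0976% (E8) and 0.0983% (E9) with extract. In HCC1937 their share was 0.220 to 0.228% in controls and 0.0844 to 0.0889% with extract. Taken library by library, the median of the 47 log2 differences from the control mean was -2.13 in E7, -1.83 in E8 and -1.68 in E9, and -1.81, -1.90 and -1.89 in E31, E32 and E33. In bulk samples, fewer cells of a type and less RNA per cell cannot be told apart.

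In MDA-MB-231, 32 of the 47 genes were called lower by edgeR's quasi-likelihood test (adjusted p under 0.05 over all genes), where 32.8% of all tested genes were called lower. A further 6 were called higher, where 33% of all genes were. In HCC1937, 35 were called lower and 2 higher, beside 39.1% and 32.7% of all genes. The calls coincided for 30 genes that were lower in both lines, beside 25.3% of all genes, and no gene of the family was higher in both, beside 24.3%. The median log2 fold change of the family was -1.95 in MDA-MB-231 against 0 over all tested genes. For HCC1937 the family's median was -2.04 and that of all tested genes -0.16. Groups did not overlap, with every extract library below every control library, for 32 of the 47 genes in MDA-MB-231 (35.2% of all genes) and 36 in HCC1937 (43.8%). All extract libraries were above all controls for 5 genes (MDA-MB-231) and 6 genes (HCC1937), beside 32.5% and 38.3%. Since these contrasts led to the choice of the family, nothing further is read from the counts. Without E7 the MDA-MB-231 counts were 33 lower and 9 higher, beside 37.7% and 37.8% of all genes. The small count of higher genes in MDA-MB-231 also hung on other single libraries: it was 2 without E1 and without E2, 3 without E9 and 4 without E3 and without E8. In HCC1937 the 2 higher genes became 1 when E25, E26, E27 or E32 was left out.

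The family's transcripts are rich in A and T, and in these libraries extract effects varied with the length and GC content of transcripts across all genes. A length and GC offset was therefore fitted in each library, a smooth surface that removes the part of log2 CPM that follows transcript length and GC content. With it the family's median moved to -1.004 in MDA-MB-231 and -1.07 in HCC1937, while the medians of all genes stayed at 0 and -0.16. Called lower were then 31 genes (MDA-MB-231) and 32 genes (HCC1937), beside 32.4% and 38.7% of all genes, with 27 lower in both lines beside 22.1%. Called higher were 7 and 6 genes, beside 32.6% and 28.3%, and 3 of them (CEP15, CEP41 and CEP78) in both lines beside 19.6%. Values with the offset are named as such below. The plot of extract effects by gene shows the shift of each gene.

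**Figure D1:**
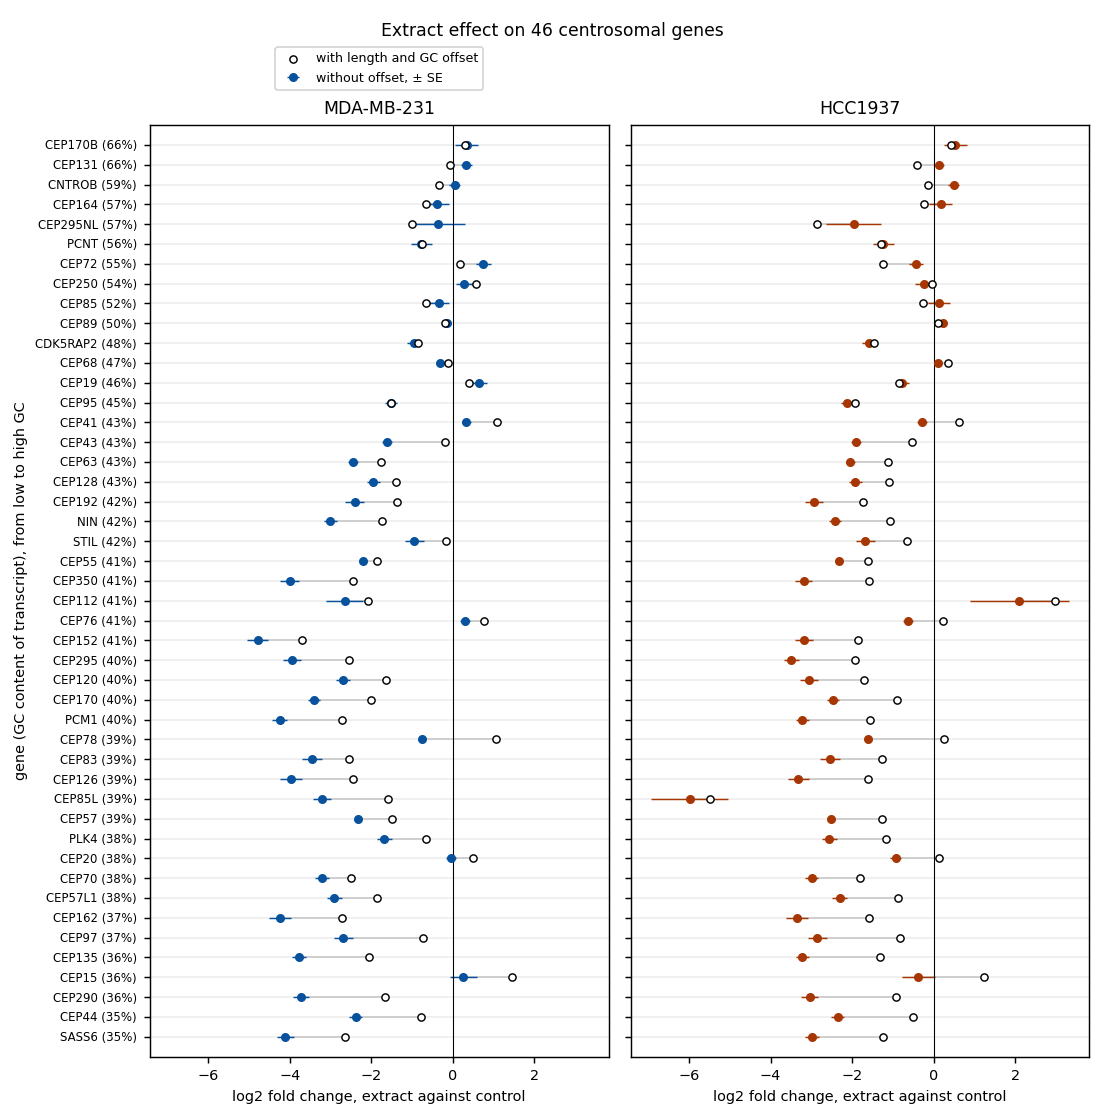
Log2 fold change of extract against control for 46 of the centrosomal genes in MDA-MB-231 (blue, left) and HCC1937 (brown, right), ordered from high (top) to low (bottom) GC content of the transcript; filled points are the fit without offset with bars of 1 SE, open points the fit with the length and GC offset. The open points lie right of the filled ones over most of the lower part of the plot, and the medians over all 47 genes move from -1.95 to -1.004 and from -2.04 to -1.07.

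All 8 genes of the duplication core were called lower in both lines, beside 25.3% of all genes, and these calls come from the contrasts on which the family was chosen. Median log2 fold changes were -2.43 for MDA-MB-231 and -2.55 for HCC1937, and -1.62 and -1.19 with the offset. Promoters of 4 of them, all called lower in both lines but by unequal amounts, are printed here. That of CEP72, a satellite protein gene that was called higher in MDA-MB-231 and lower in HCC1937, is printed for contrast. Each sequence covers 250 bases before to 50 bases after the gene's first listed start in RefSeq on GRCh38.p14 and is written on the gene's own strand. Capitals mark 4 motifs searched on both strands: CCAAT (bound by NF-Y), TTTGAA (the cell cycle homology region, CHR), GCGGGAA (E2F) and GGGCGG (the GC box), of which the last pair can share bases.
PLK4, chr4:127880643-127880942, plus strand: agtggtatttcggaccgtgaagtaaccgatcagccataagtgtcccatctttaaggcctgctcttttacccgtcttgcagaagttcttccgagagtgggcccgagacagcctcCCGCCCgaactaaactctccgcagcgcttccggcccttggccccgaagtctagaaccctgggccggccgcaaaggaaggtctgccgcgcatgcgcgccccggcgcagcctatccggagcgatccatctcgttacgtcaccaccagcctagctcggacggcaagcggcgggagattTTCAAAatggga
STIL, chr1:47314098-47314397, minus strand: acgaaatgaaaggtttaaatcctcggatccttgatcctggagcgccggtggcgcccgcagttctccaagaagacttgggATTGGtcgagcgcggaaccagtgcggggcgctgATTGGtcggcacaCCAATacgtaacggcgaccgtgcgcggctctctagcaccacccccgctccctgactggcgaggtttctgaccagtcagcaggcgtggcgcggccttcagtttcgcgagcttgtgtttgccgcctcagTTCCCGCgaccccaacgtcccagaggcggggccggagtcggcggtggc
SASS6, chr1:100132881-100133180, minus strand: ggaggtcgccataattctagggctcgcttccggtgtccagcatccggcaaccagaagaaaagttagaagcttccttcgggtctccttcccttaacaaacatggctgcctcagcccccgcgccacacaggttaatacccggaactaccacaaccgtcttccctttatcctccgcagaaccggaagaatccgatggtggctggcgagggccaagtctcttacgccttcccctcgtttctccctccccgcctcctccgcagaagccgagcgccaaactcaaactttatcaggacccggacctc
CEP152, chr15:48811020-48811319, minus strand: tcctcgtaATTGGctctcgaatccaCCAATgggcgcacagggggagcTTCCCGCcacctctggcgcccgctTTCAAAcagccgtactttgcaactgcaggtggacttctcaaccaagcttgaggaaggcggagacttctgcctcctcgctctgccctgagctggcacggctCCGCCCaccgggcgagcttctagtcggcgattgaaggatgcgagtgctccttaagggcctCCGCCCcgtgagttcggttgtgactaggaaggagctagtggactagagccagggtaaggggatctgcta
CEP72, chr5:612090-612389, plus strand: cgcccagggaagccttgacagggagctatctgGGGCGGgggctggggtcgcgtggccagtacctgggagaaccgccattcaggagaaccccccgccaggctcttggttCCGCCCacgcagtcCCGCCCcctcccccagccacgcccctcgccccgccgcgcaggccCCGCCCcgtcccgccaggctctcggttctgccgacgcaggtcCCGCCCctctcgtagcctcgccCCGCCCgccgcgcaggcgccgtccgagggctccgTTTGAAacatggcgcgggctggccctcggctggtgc

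The CEP152 window holds all 4 motifs and the SASS6 window none, and both genes were called lower in both lines. PLK4 and CEP72 both have a TTTGAA just after the start site, read on the opposite strand in PLK4. Of the 47 genes, 40 had a promoter entry. TTTGAA stood in 35% of these against 9.90% of the 11395 tested genes with an entry, GCGGGAA in 25% against 10.0%, CCAAT in 50% against 36.3% and GGGCGG in 72.5% against 68.8%. Genes with and without TTTGAA had median log2 fold changes of -2.36 (14 genes) and -2.20 (26 genes) in MDA-MB-231 and of -2.55 and -1.98 in HCC1937. For GCGGGAA the medians were -1.57 with it (10 genes) and -2.52 without it (30 genes) in MDA-MB-231, and -1.86 and -2.39 in HCC1937. For CCAAT they were -1.23 with it (20 genes) and -2.68 without it (20 genes) in MDA-MB-231, and -1.90 and -2.39 in HCC1937. For GGGCGG they were -1.68 with it (29 genes) and -2.69 without it (11 genes) in MDA-MB-231, and -2.12 and -2.47 in HCC1937. The median GC content of the promoter windows was 63.2%, and 65.0% over all tested genes with an entry. A match is a description of letters and says nothing of binding.

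PLK4 (chr4:127880861-127899195 on GRCh38 in GENCODE 29, 3841 nt, 38.4% GC), the kinase that sets centriole number, stood at 18.8, 19.9 and 19.4 CPM in MDA-MB-231 controls and at 4.05, 6.48 and 7.25 CPM with extract. In HCC1937 its controls were at 41.9, 46.3 and 45.9 CPM and its extract libraries at 5.87, 8.36 and 8.45 CPM. The groups did not overlap in either line, and HCC1937 controls were above all other libraries. The log2 fold change was -1.68 ± 0.19 (SE) in MDA-MB-231 and -2.56 ± 0.18 in HCC1937, and -0.65 and -1.16 with the offset.

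STIL (chr1:47250139-47314147, 5225 nt, 42.1% GC), the PLK4 substrate, fell less than the others of the core. It stood at 52.7, 56.7 and 60.7 CPM in MDA-MB-231 controls and 16.005, 34.1 and 37.8 CPM with extract. HCC1937 had 61.2, 64.7 and 68.1 CPM without and 18.2, 21.5 and 20.9 CPM with extract. E7 was the lowest extract library, at less than the level of either E8 or E9, and no group overlapped its control. Its log2 fold change was -0.94 ± 0.23 in MDA-MB-231 (-0.66 without E7) and -1.68 ± 0.24 in HCC1937. With the offset the MDA-MB-231 call ended (-0.18), while the HCC1937 value of -0.65 was still called lower.

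SASS6 (chr1:100083563-100132955, 3880 nt, 35.2% GC), the cartwheel protein and the family's transcript with the lowest GC content, fell from 16.3, 15.5 and 18.4 CPM to 1.14, 0.882 and 0.939 CPM in MDA-MB-231. In HCC1937 it fell from 20.97, 23.6 and 24.8 to 2.35, 2.61 and 3.77 CPM. Every extract library was well under every control. Log2 fold changes were -4.11 ± 0.20 and -2.99 ± 0.17, and -2.66 and -1.23 with the offset.

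CEP152 (chr15:48712928-48811146, 5635 nt, 40.6% GC), a receptor for PLK4, had the lowest log2 fold change of the family in MDA-MB-231. Controls there held 27.9, 34.8 and 32.3 CPM and extract libraries 0.498, 1.65 and 1.03 CPM. HCC1937 controls held 21.8, 25.01 and 23.4 CPM and extract libraries 3.08, 2.33 and 2.30 CPM. Without extract the HCC1937 libraries were somewhat below those of MDA-MB-231, and with extract all 3 MDA-MB-231 libraries were below all 3 HCC1937 libraries. Its log2 fold changes were -4.79 ± 0.25 and -3.19 ± 0.22, and -3.71 and -1.85 with the offset. CEP192 (7960 nt, 42.4% GC), the other receptor, went from 32.7, 32.7 and 34.1 CPM to 3.06, 7.52 and 7.69 CPM in MDA-MB-231. Its HCC1937 values were 58.5, 65.9 and 62.7 CPM and, with extract, 7.61, 8.64 and 8.19 CPM. Again the groups were apart in both lines, with E7 the lowest library, and the fold changes were -2.41 ± 0.23 and -2.94 ± 0.23 (-1.37 and -1.74 with the offset). CEP63, which binds CEP152, and CEP57 and CEP57L1, which keep new centrioles engaged, had log2 fold changes from -2.91 (CEP57L1) to -2.33 (CEP57) in MDA-MB-231 and from -2.53 (CEP57) to -2.04 (CEP63) in HCC1937.

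**Figure D2:**
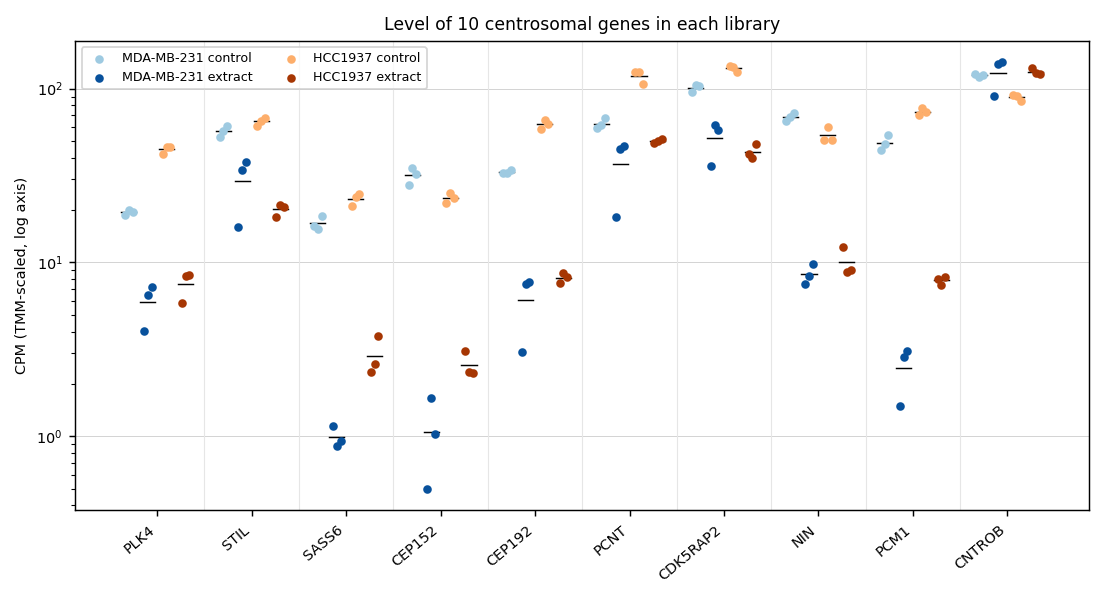
TMM-scaled CPM on a log axis for 10 centrosomal genes in each of the 12 libraries; each point is a library, black bars are group means, light and dark blue are MDA-MB-231 control and extract, light and dark orange HCC1937 control and extract. Extract points lie below control points in both lines for 9 of the genes, and the CNTROB groups lie close together.

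Among 10 genes of the centriole wall, its elongation and its length control, 6 were called lower and 1 higher in MDA-MB-231. In HCC1937, 8 were called lower and 1 higher. Over all tested genes the shares were 32.8% and 33%, and 39.1% and 32.7%. The median log2 fold change of the 10 genes was -1.58 and -2.15, and -0.76 and -0.67 with the offset. CEP295 (40.3% GC), needed for a new centriole to become a centrosome, went from 15.3, 14.7 and 12.4 CPM to 0.782, 0.691 and 1.25 CPM in MDA-MB-231 and from 27.3, 30.9 and 31.1 to 2.06, 2.93 and 2.90 CPM in HCC1937. CEP135 (36.1% GC), which links the cartwheel to the wall, went from 22.6, 24.4 and 22.7 to 1.07, 1.84 and 1.97 CPM and from 17.2, 17.8 and 20.1 to 2.23, 1.93 and 1.74 CPM. No extract library of either gene reached a control. Their log2 fold changes were -3.94 ± 0.21 and -3.49 ± 0.18 for CEP295 and -3.78 ± 0.17 and -3.22 ± 0.17 for CEP135. With the offset they were -2.54 and -1.93, and -2.05 and -1.32. CEP120 and CEP97, which act in elongation and capping, and CEP44, also of this group, were called lower in both lines. In the order CEP120, CEP97 and CEP44, log2 fold changes were -2.70, -2.69 and -2.39 in MDA-MB-231 and -3.06, -2.86 and -2.35 in HCC1937. The offset moved CEP97 and CEP44 to -0.73 and -0.79 in MDA-MB-231 and -0.83 and -0.52 in HCC1937.

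CNTROB (58.7% GC), which marks the daughter centriole, and CEP85, which binds STIL, were not called lower in either line without the offset. CNTROB stood at 122, 117 and 119 CPM in MDA-MB-231 controls and 90.2, 138 and 142 CPM with extract, and at 92.1, 90.3 and 84.6 and 131, 123 and 121 CPM in HCC1937. The MDA-MB-231 groups overlapped, with E7 below and E8 and E9 above the controls, while all HCC1937 extract libraries were above the controls. Its log2 fold change was 0.048 ± 0.14 in MDA-MB-231 (0.23 and called higher without E7) and 0.49 ± 0.14, called higher, in HCC1937. The offset turned both signs, to -0.34 (called lower) and -0.15 (not called). CEP85 had -0.35 and 0.13, neither called, and -0.020 in MDA-MB-231 without E7, also not called. CEP76, which limits reduplication, stood at 7.45, 7.16 and 7.21 CPM against 8.46, 8.94 and 9.53 CPM with extract in MDA-MB-231 and at 12.1, 16.2 and 12.6 against 8.62, 9.001 and 8.68 CPM in HCC1937, without overlap in either line. It was called higher in MDA-MB-231 at 0.31 ± 0.13 and lower in HCC1937 at -0.64 ± 0.12, and the MDA-MB-231 call held under 3 of 14 alternatives. With the offset its values were 0.77 (called higher) and 0.22 (not called). CEP78, a protein of the centriole wall (39.2% GC, 11198 nt) stood at 31.6, 28.9 and 31.8 CPM against 17.1, 19.03 and 18.2 CPM with extract in MDA-MB-231, and at 44.6, 43.3 and 41.7 against 14.6, 13.2 and 14.8 CPM in HCC1937. Extract libraries were below controls in both lines, with fold changes of -0.76 ± 0.084 and -1.60 ± 0.085, yet the offset turned both into called rises, of 1.05 and 0.25. The offset rests on the longest annotated transcript of CEP78, which has 8839 nt after the coding part. Whether these cells express that transcript was not tested. CEP295NL, at under 1 CPM in every library, had -0.37 (not called) and -1.96 (called lower).

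Both scaffold genes of the pericentriolar material were called lower in both lines, by less than the family median. PCNT (chr21:46324122-46445769, 10560 nt, 55.98% GC), the large scaffold that holds gamma-tubulin complexes, stood at 58.97, 61.9 and 67.7 CPM in MDA-MB-231 controls and 18.1, 44.8 and 47.01 CPM with extract. HCC1937 had 125, 124 and 106 CPM without and 48.6, 50.1 and 51.6 CPM with extract. In MDA-MB-231 the size of the fall rested on E7, since E8 and E9 were closer to the controls: the log2 fold change was -0.77 ± 0.26 with E7 and -0.45 without it. HCC1937 had -1.24 ± 0.26 and no overlap. CDK5RAP2 (chr9:120388869-120580170, 6228 nt, 48.5% GC), which activates gamma-tubulin complexes, went from 95.1, 104 and 103 to 35.9, 61.8 and 57.97 CPM in MDA-MB-231 and from 134, 133 and 125 to 41.97, 39.6 and 47.9 CPM in HCC1937. All extract libraries were below all controls, at -0.95 ± 0.17 (-0.75 without E7) and -1.60 ± 0.17. With the offset this pair moved little: PCNT had -0.77 and -1.30, and CDK5RAP2 -0.85 and -1.47.

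Of 8 genes grouped with the appendages, 5 were called lower in MDA-MB-231, beside 32.8% of all genes. In HCC1937, 4 were called lower and 1 higher, beside 39.1% and 32.7%. NIN (chr14:50719763-50831121, 10293 nt, 42.2% GC), which anchors microtubules at subdistal appendages, stood at 64.9, 69.05 and 72.5 CPM in MDA-MB-231 controls and 7.47, 8.40 and 9.75 CPM with extract, and at 50.7, 60.2 and 50.5 and 12.2, 8.76 and 9.09 CPM in HCC1937. Both lines were without overlap, at -3.003 ± 0.15 and -2.43 ± 0.14 (-1.73 and -1.07 with the offset). Distal appendage genes differed in their values. CEP83, which starts distal appendage assembly, had -3.46 and -2.55, both called lower. CEP164 (56.6% GC), which docks ciliary vesicles, had -0.39 and 0.17, neither called, and -0.034 in MDA-MB-231 without E7. CEP89 (50.5% GC), another distal appendage protein, stood at 22.98, 24.6 and 24.5 CPM against 19.1, 21.6 and 24.4 CPM with extract in MDA-MB-231, where the groups overlapped, and at 31.2, 29.1 and 30.9 against 32.9, 36.6 and 37.5 CPM in HCC1937, where they did not. It had -0.14 (not called) and 0.23 (called higher, a call that held under 4 of 13 alternatives and ended with the offset at 0.10). The subdistal gene CEP128 had -1.95 and -1.92, called lower in both lines.

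CEP170 and CEP170B encode related proteins from transcripts of very different GC content, and their extract values differed. CEP170 (39.7% GC), a subdistal appendage protein, went from 109, 111 and 124 to 7.82, 11.9 and 12.6 CPM in MDA-MB-231 and from 88.9, 91.3 and 91.4 to 16.5, 16.1 and 16.3 CPM in HCC1937. CEP170B (66.2% GC) stood at 55.8, 52.95 and 51.8 and, with extract, 29.4, 89.97 and 82.5 CPM in MDA-MB-231, and at 183, 183 and 166 and 264, 243 and 265 CPM in HCC1937. CEP170 extract libraries were far below controls in both lines. For CEP170B, E7 was below and E8 and E9 above the controls, and HCC1937 extract libraries were all above the controls. Log2 fold changes were -3.40 ± 0.15 and -2.47 ± 0.14 for CEP170, both called lower, and 0.34 ± 0.29 and 0.54 ± 0.29 for CEP170B, neither called. The HCC1937 SE of CEP170B also carries the scatter of E7, through the spread shared by all groups. Its HCC1937 value stayed uncalled under 11 of 13 alternatives. Without E7 CEP170B was called higher in MDA-MB-231 (0.69). The offset brought CEP170 to -2.002 and -0.90, still called lower, and CEP170B to 0.31 (not called) and 0.44 (called higher). CEP170 has a near-identical pseudogene copy, and how its reads were shared is not known.

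Coding sequences of such relatives differ in GC content even where most residues are the same, as the most similar 40-codon stretch of each pair shows. G and C are in capitals, and positions count from the start codon of the longest protein-coding transcript in GENCODE 29 on GRCh38.
CEP170, coding bases 88 to 207, chromosome 1: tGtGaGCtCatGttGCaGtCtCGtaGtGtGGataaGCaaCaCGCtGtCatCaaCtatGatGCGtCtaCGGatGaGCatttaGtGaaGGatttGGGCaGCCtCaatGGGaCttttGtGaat
CEP170B, coding bases 88 to 207, chromosome 14: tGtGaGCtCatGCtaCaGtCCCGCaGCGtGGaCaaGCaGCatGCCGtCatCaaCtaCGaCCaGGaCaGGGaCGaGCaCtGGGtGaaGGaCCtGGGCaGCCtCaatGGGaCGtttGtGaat
CEP85L, coding bases 1465 to 1584, chromosome 6: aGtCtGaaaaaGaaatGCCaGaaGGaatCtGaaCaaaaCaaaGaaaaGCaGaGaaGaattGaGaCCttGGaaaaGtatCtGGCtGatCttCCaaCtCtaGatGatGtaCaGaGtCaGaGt
CEP85, coding bases 1369 to 1488, chromosome 1: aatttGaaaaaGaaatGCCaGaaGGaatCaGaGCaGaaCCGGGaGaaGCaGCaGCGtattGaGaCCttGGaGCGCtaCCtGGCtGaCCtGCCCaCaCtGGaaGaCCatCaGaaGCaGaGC
In the first pair 36 of 40 codons encode the same residue while 24 of the 120 bases differ, 16 of them at the third codon position, and GC content is 45.8% in CEP170 and 57.5% in CEP170B. Over whole coding sequences it is 43.2% and 67.1%, and at the third codon position 32.7% and 79.3%. In the second pair 33 codons encode the same residue and 32 bases differ, 20 at the third position, with 38.3% GC in CEP85L and 51.7% in CEP85. CEP85L was called lower in both lines and CEP85 in neither, but with the offset CEP85 was called lower in MDA-MB-231 (-0.67). With E7 left out too, that value was -0.41, still called lower.

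Both linker genes, which tie the centrioles together, had small log2 fold changes. CEP250 (53.7% GC) stood at 84.7, 83.9 and 87.8 CPM against 62.9, 128 and 121 CPM with extract in MDA-MB-231, with E7 below and E8 and E9 above the controls, and at 64.9, 62.3 and 58.8 against 51.5, 48.6 and 57.04 CPM in HCC1937, with extract libraries below controls. Its log2 fold changes of 0.28 and -0.24 were not called, and without E7 it was called higher in MDA-MB-231 (0.54). CEP68 (47.3% GC) had -0.31 ± 0.10 in MDA-MB-231, called lower, and 0.11 in HCC1937, not called. With the offset these were -0.11 (not called) and 0.35 (called higher), while CEP250 had 0.57 (called higher) and -0.035 (not called). With E7 left out too, the CEP68 value with the offset in MDA-MB-231 was -0.31, called lower.

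Among 5 genes of the satellites and the ciliary gate, PCM1 and CEP290 were called lower in both lines and the others differed. PCM1 (chr8:17922840-18029944, 8287 nt, 39.7% GC), the satellite scaffold, stood at 44.3, 48.1 and 54.04 CPM in MDA-MB-231 controls and 1.49, 2.84 and 3.09 CPM with extract. HCC1937 had 70.8, 76.9 and 72.9 CPM and 8.01, 7.43 and 8.22 CPM. The drop was wide in both lines, at -4.25 ± 0.19 and -3.22 ± 0.17, and -2.72 and -1.55 with the offset. CEP290 (35.9% GC), a gatekeeper of the cilium mutated in ciliopathies, had -3.73 and -3.04 (-1.66 and -0.92 with the offset).

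CEP72 (chr5:612272-667168, 2434 nt, 55.4% GC), which binds satellites, went up in MDA-MB-231 from 8.48, 9.20 and 9.09 to 10.1, 18.5 and 15.97 CPM and down in HCC1937 from 21.4, 19.1 and 17.4 to 13.6, 14.1 and 14.9 CPM. In each line the groups were apart, narrowly so for E7. The log2 fold changes were 0.75 ± 0.18 (called higher, 0.95 without E7) and -0.44 ± 0.17 (called lower, but not with DESeq2), and 0.17 (not called) and -1.25 (called lower) with the offset. With E7 left out too, the MDA-MB-231 value with the offset was 0.37, called higher. CEP131 (65.6% GC), another satellite protein, stood at 31.3, 30.97 and 30.4 CPM in MDA-MB-231 controls and 29.2, 43.9 and 43.1 CPM with extract, and at 36.5, 36.99 and 33.9 and 39.02, 37.9 and 40.9 CPM in HCC1937. It had 0.33 ± 0.13 in MDA-MB-231 (0.50 and called higher without E7), a call of higher that held under 3 of 14 alternatives. Its groups overlapped through E7, and the offset gave -0.066, not called. In HCC1937 it had 0.13, not called, and -0.40, called lower, with the offset. CEP20 (38.3% GC), a small protein of satellites, stood at 39.8, 44.2 and 48.3 CPM and, with extract, 52.1, 37.8 and 38.8 CPM in MDA-MB-231, where E7 was the highest library. In HCC1937 it fell from 46.6, 48.1 and 51.6 to 23.4, 27.5 and 25.6 CPM. It had -0.044 (not called) and -0.93 ± 0.13 (called lower), and with the offset 0.49 (called higher) and 0.12 (not called). Without E7 the MDA-MB-231 value without the offset was -0.20, called lower.

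Of 8 genes for cilium and microtubule factors, 5 were called lower and 3 higher in MDA-MB-231, beside 32.8% and 33% of all genes. In HCC1937, 6 were called lower, beside 39.1%. CEP162 (37.01% GC), of the transition zone, stood at 8.78, 8.43 and 9.80 CPM and, with extract, 0.569, 0.345 and 0.537 CPM in MDA-MB-231, and at 3.15, 4.16 and 4.04 and 0.364, 0.201 and 0.528 CPM in HCC1937. CEP350 (41.3% GC), a large microtubule binding protein, went from 40.97, 47.4 and 45.1 to 1.78, 3.61 and 2.64 CPM and from 48.5, 55.6 and 52.7 to 5.83, 4.22 and 7.05 CPM. CEP126 (38.9% GC) went from 12.3, 9.09 and 10.6 to 0.356, 0.921 and 0.626 CPM and from 8.30, 9.83 and 10.4 to 1.25, 0.924 and 0.679 CPM. For these genes every extract library lay far under the controls. The respective log2 fold changes of MDA-MB-231 and HCC1937 were -4.25 ± 0.27 and -3.35 ± 0.28 for CEP162, -4.01 ± 0.22 and -3.19 ± 0.21 for CEP350, and -3.97 ± 0.28 and -3.32 ± 0.25 for CEP126. With the offset they lay between -2.73 and -2.44 in MDA-MB-231 and between -1.62 and -1.59 in HCC1937. CEP70 had -3.21 and -2.99. CEP43 had -1.61 and -1.91, both called lower, and with the offset -0.18 and -0.53, neither called. With E7 left out too, its MDA-MB-231 value with the offset was -0.64, called lower. The longest transcript of CEP43, on which the offset rests, has 12735 nt after the coding part.

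CEP19 and CEP41 were called higher in MDA-MB-231. CEP19 (45.5% GC), at the base of the cilium, went from 1.73, 2.20 and 3.25 to 4.34, 3.53 and 3.44 CPM in MDA-MB-231 and from 15.1, 14.1 and 14.9 to 8.99, 9.16 and 7.58 CPM in HCC1937. The lines moved in opposite directions, at 0.63 ± 0.21 and -0.78 ± 0.17, and with the offset the MDA-MB-231 value was 0.40 and no longer called. CEP41, needed for tubulin glutamylation in cilia, stood at 19.9, 19.4 and 21.4 CPM against 25.7, 23.4 and 27.3 CPM with extract in MDA-MB-231 and at 14.1, 15.8 and 16.9 against 12.9, 11.01 and 14.7 CPM in HCC1937, where the groups overlapped. It had 0.33 ± 0.12 (called higher) and -0.28 (not called), and 1.09 and 0.63, both called higher, with the offset.

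CEP55 (41.4% GC), which recruits the abscission machinery to the midbody, was the gene of the family with the highest level per length in both untreated lines. It fell from 151, 152 and 154 to 32.8, 33.1 and 33.7 CPM in MDA-MB-231 and from 89.4, 91.7 and 94.5 to 19.5, 18.6 and 16.7 CPM in HCC1937. Replicates were close and groups far apart, at -2.20 ± 0.077 and -2.33 ± 0.078 (-1.86 and -1.60 with the offset). CEP85L stood at 14.7, 17.2 and 17.1 CPM and 1.35, 1.46 and 2.42 CPM with extract in MDA-MB-231 (-3.21 ± 0.23, and -1.59 with the offset). In HCC1937 it was at 0.269, 0.429 and 0.281 CPM in controls and had no reads with extract, at least 8.38-fold lower when the floor is set at 3 counts over the group, on the TMM scale. CEP95 had -1.52 and -2.12, both called lower and little moved by the offset (-1.52 and -1.92). CEP15 had 0.26 and -0.37, neither called, and with the offset 1.45 and 1.23, both called higher. It stood at 19.6, 20.003 and 22.1 CPM in MDA-MB-231 controls and 40.05, 15.8 and 18.8 CPM with extract, E7 being the highest, and at 3.57, 2.41 and 4.11 and 3.36, 3.05 and 1.40 CPM in HCC1937. Without E7 the MDA-MB-231 value of CEP15 without the offset was -0.25, not called.

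Transcripts of the family were longer and poorer in GC than those of other genes. The median of the longest protein-coding transcript was 5562 nt against 3377 nt over all tested genes with an annotated transcript, and the median GC content 41.3% against 49.3%. Coding sequences had a median of 2778 nt against 1380 nt. Extract effects were higher at higher GC content among the 47 genes, with a Pearson correlation across genes of 0.65 in MDA-MB-231 and 0.62 in HCC1937, and of 0.44 and 0.50 over all 14051 genes. Genes of a library share its depth and composition and are not independent, so these are descriptions. With the offset the correlation across the 47 genes was 0.40 for MDA-MB-231 and 0.16 for HCC1937, and near 0 over all genes (-0.0056 and -0.024).

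The medians were also taken within classes of GC content and length, beside those of all genes of the class, as a description of the values on which the family was chosen. Up to 40% GC, 19 genes of the family had a median log2 fold change of -3.21 in MDA-MB-231 and -2.86 in HCC1937, against -1.33 and -1.78 for all 2058 genes of the class. Between 40 and 45% GC, 13 genes had -2.41 and -2.04 against -0.50 and -0.99 for 2917 genes. Between 45 and 52% GC, 7 genes had -0.31 and 0.045 against 0.16 and 0, and over 52% GC, 8 genes had 0.17 and -0.055 against 0.48 and 0.58. The plot of extract effects against GC content shows these medians. From the lowest to the highest class, 17, 11, 3 and 1 genes of the family were called lower in MDA-MB-231, beside 74.1%, 51.3%, 23.5% and 14.2% of all genes of the class. In HCC1937 these were 18, 11, 3 and 3 genes, beside 82.2%, 64.2%, 30.6% and 16.2%. By length the medians were -0.95 and -1.45 up to 4 kb (18 genes), -1.45 and -1.80 from 4 to 7 kb (16 genes) and -3.003 and -2.94 over 7 kb (13 genes), beside 0.30 and 0.22, -0.39 and -0.64, and -0.90 and -1.14 over all genes of these classes. With the offset the 19 genes of lowest GC had medians of -1.66 and -1.23, beside -0.017 and -0.28 for all genes of the class.

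**Figure D3:**
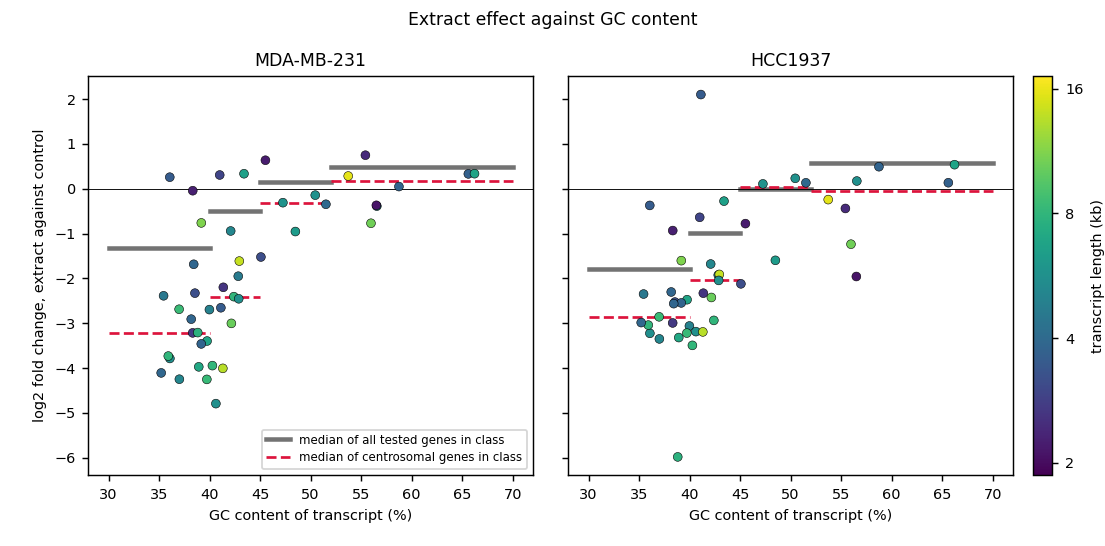
Log2 fold change of extract against control over the GC content of the transcript for 46 of the centrosomal genes, coloured by transcript length in kb (log colour scale); grey lines are medians of all tested genes and dashed red lines medians of all 47 centrosomal genes in 4 GC classes. Up to 40% GC the red line is at -3.21 in MDA-MB-231 and -2.86 in HCC1937, below the grey lines at -1.33 and -1.78; over 52% GC it is at 0.17 and -0.055.

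The offset changed single calls in both directions. In MDA-MB-231 it kept 31 calls, ended 6 (CEP131, CEP19, CEP43, CEP68, CEP72 and STIL), turned 1 (CEP78) and added 6 (CEP15, CEP164, CEP20, CEP250, CEP85 and CNTROB). In HCC1937 it kept 31, ended 5 (CEP20, CEP43, CEP76, CEP89 and CNTROB), turned 1 (CEP78) and added 6 (CEP112, CEP131, CEP15, CEP170B, CEP41 and CEP68). For CEP43, CEP68 and CEP72 the MDA-MB-231 calls without the offset held with E7 left out. The ending of these calls with the offset depended on E7. With the offset and E7 left out, CEP43 (-0.64) and CEP68 (-0.31) were called lower there and CEP72 (0.37) higher. CEP131, CEP19 and STIL were still not called. Scaling to library totals alone moved the all-gene median log2 fold change of MDA-MB-231 from 0 to -0.26. That of HCC1937 went from -0.16 to -0.61. The directions given above are thus set against the bulk of genes in each library.

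The extract effect was compared between the lines as the difference of the log2 fold changes, HCC1937 minus MDA-MB-231. This difference is made from the fold changes on which the family was chosen, so its calls and p-values are descriptions. It was called for 16 of the 47 genes, 7 higher and 9 lower, beside 11.5% and 20.6% of all genes. Without E7 these counts were 14 and 17, beside 25.3% and 33.7% of all genes. With the offset they were 13 and 10, beside 15.1% and 25% of all genes. Leaving out E32 gave 11 genes higher and 9 lower. Line, medium and concentration differ together here. Several strong falls of MDA-MB-231 were less deep in HCC1937: the difference was 1.61 ± 0.34 for CEP152 (edgeR adjusted p = 0.00371), 1.12 ± 0.26 for SASS6 (edgeR adjusted p = 0.00712) and 1.03 ± 0.24 for PCM1 (edgeR adjusted p = 0.00646). Without E7 they were 1.36, 1.24 and 0.85. CEP112 had the highest difference, 4.75 ± 1.30, but in HCC1937 it had 0.0384, 0 and 0.0352 CPM in controls and 0.324, 0.0402 and 0 CPM with extract, which is 2 and 9 reads over the groups, most of the latter in E31, so no fold is read there. Without E31 the difference was 2.45 and not called. In MDA-MB-231 CEP112 went from 5.72, 5.46 and 5.79 to 1.35, 0.729 and 0.716 CPM.

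In the other direction, CEP19 had the lowest difference, -1.41 ± 0.27 (edgeR adjusted p = 0.00212), followed by CEP72 at -1.19 ± 0.25 (edgeR adjusted p = 0.00383) and CEP76 at -0.94 ± 0.17 (edgeR adjusted p = 0.00169). All 3 were called higher in MDA-MB-231 and lower in HCC1937. The differences of the 3 genes held under all 19 alternatives. The MDA-MB-231 call held under 8 of 14 for CEP19, 12 of 14 for CEP72 and 3 of 14 for CEP76, and the HCC1937 call under 13 of 13, 6 of 13 and 12 of 13. The HCC1937 call for CEP72 ended with DESeq2 (-0.35). CEP20 followed at -0.89 ± 0.18 (edgeR adjusted p = 0.00335). PLK4 fell further in HCC1937, with a difference of -0.88 ± 0.25 (edgeR adjusted p = 0.0211), a call that ended with the offset (-0.51, edgeR adjusted p = 0.121) and was kept without E7 (-1.04). The difference for STIL was -0.74 ± 0.33, for PCNT -0.47 ± 0.36, for CDK5RAP2 -0.64 ± 0.23, for CEP192 -0.53 ± 0.32 and for CNTROB 0.44 ± 0.20, none of them called. Without E7 each of these 5 was called: -0.999, -0.76, -0.83, -0.79 and 0.28 in the same order. NIN had 0.58 ± 0.20 (edgeR adjusted p = 0.0442).

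**Figure D4:**
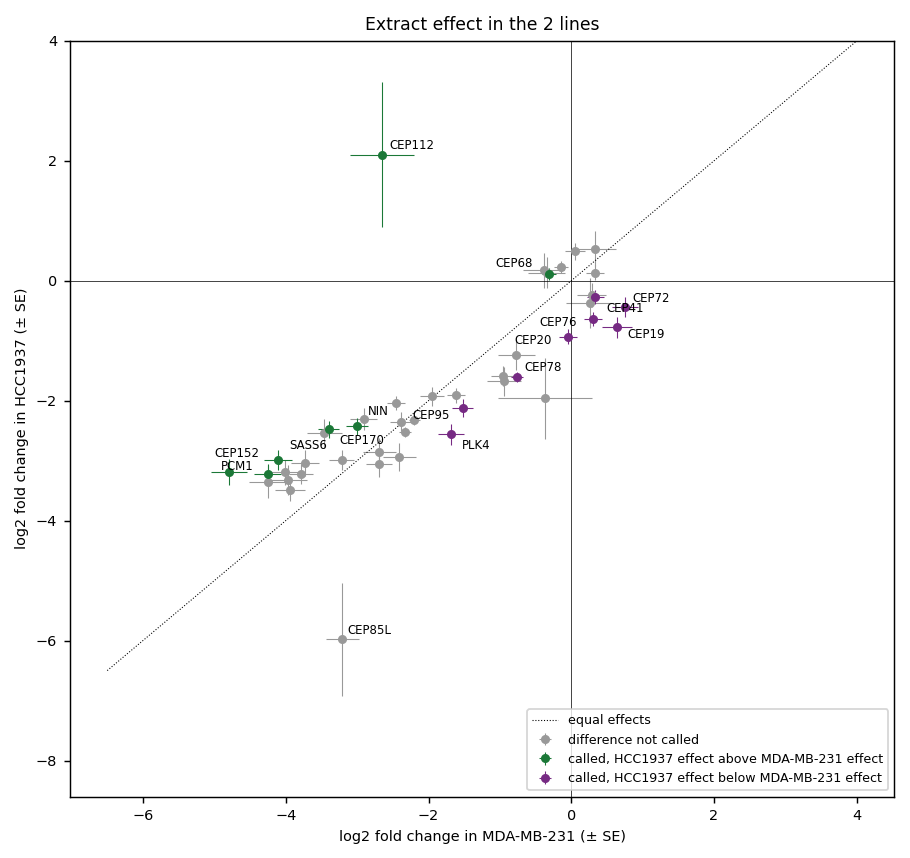
Log2 fold change of extract against control in HCC1937 (vertical) against that in MDA-MB-231 (horizontal) for 46 of the centrosomal genes, with bars of 1 SE and a dotted line of equal effects; green and purple mark the 7 genes and the 8 genes plotted whose difference was called above and below 0. CEP19, CEP72 and CEP76 are right of 0 and below 0, and the CEP112 and CEP85L points rest on HCC1937 groups with few or no reads.

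Untreated lines were compared to give the level from which each gene moved. Of the 47 genes, 14 were called higher and 16 lower in HCC1937 controls than in MDA-MB-231 controls, beside 38.7% and 36.7% of all genes. With the offset 19 were higher and 12 lower, beside 42.3% and 39%. Control libraries of the lines did not overlap for 21 genes that were higher in HCC1937 and 19 that were lower, beside 45.3% and 43% of all genes. Among the largest called differences upward were CEP19 at 2.61 ± 0.19 (edgeR adjusted p = 1.77e-07), CEP170B at 1.73 ± 0.30 (edgeR adjusted p = 2.38e-04) and PLK4 at 1.21 ± 0.17 (edgeR adjusted p = 4.97e-05). CEP170B was moved by the offset to 0.59. All HCC1937 control libraries were above all MDA-MB-231 controls for these genes. The 4 lowest were CEP112 at -7.61 ± 0.71 (edgeR adjusted p = 1.28e-06), CEP85L at -5.61 ± 0.28 (edgeR adjusted p = 4.59e-08), CEP15 at -2.62 ± 0.38 (edgeR adjusted p = 5.34e-05) and CEP120 at -2.45 ± 0.18 (edgeR adjusted p = 1.41e-07). CEP112 and CEP85L had at most 0.429 CPM in each HCC1937 control, and the fitted value of CEP112, with 2 reads there, depends on the prior count. CEP120 stood at 64.5, 64.7 and 60.4 CPM in MDA-MB-231 and 11.6, 12.5 and 10.6 CPM in HCC1937, without overlap. With extract it went to 6.33, 11.8 and 10.7 CPM and 1.42, 1.17 and 1.55 CPM.

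In the duplication core, HCC1937 controls were called higher for PLK4, CEP192 (0.91 ± 0.21, edgeR adjusted p = 0.00201), SASS6 (0.47 ± 0.15, edgeR adjusted p = 0.0128) and CEP63 (0.47 ± 0.11, edgeR adjusted p = 0.00189). STIL (0.19 ± 0.23, edgeR adjusted p = 0.466) and CEP152 (-0.44 ± 0.19, edgeR adjusted p = 0.0528) were not called, although the control libraries of the lines did not overlap for either. PCNT (0.91 ± 0.26, edgeR adjusted p = 0.00694) and PCM1 (0.59 ± 0.15, edgeR adjusted p = 0.00362) were called higher in HCC1937, CNTROB (-0.43 ± 0.14, edgeR adjusted p = 0.0159) and NIN (-0.36 ± 0.13, edgeR adjusted p = 0.0299) lower, and CDK5RAP2 (0.37 ± 0.16, edgeR adjusted p = 0.0550) was not called. With the offset the calls for NIN, CEP135, CEP170, CEP41, CEP44, CEP57L1 and CEP89 ended, and the value for CEP135 turned from -0.34 to 0.12.

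**Figure D5:**
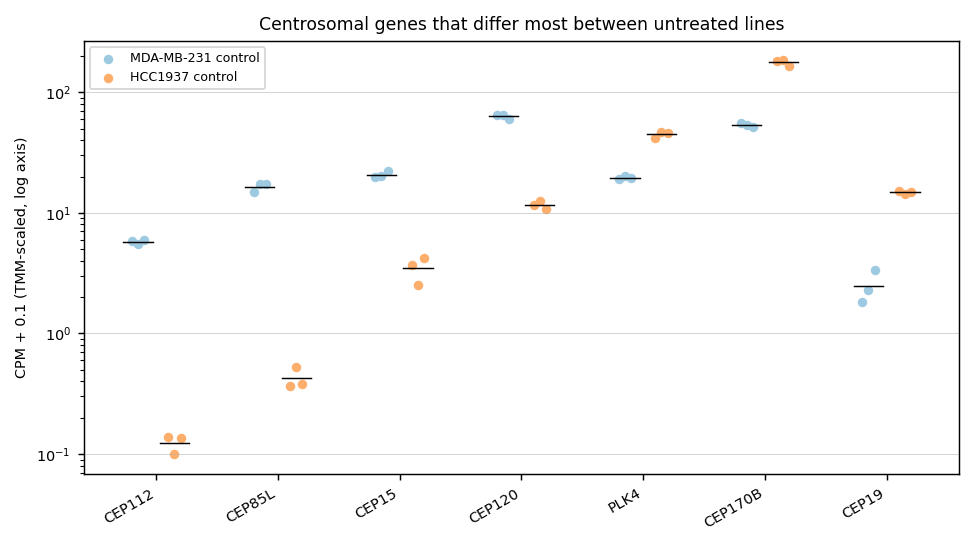
CPM + 0.1 on a log axis in the 3 control libraries of MDA-MB-231 (blue) and HCC1937 (orange) for 7 of the centrosomal genes with the largest called differences between the untreated lines; each point is a library and black bars are means. CEP112 and CEP85L are far lower in HCC1937 and CEP19 is the gene with the largest step upward; no pair of groups overlaps.

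Levels were compared between genes per kilobase of the longest protein-coding transcript. In MDA-MB-231 controls CEP55 led at 57.8 CPM per kb, followed by CNTROB at 31.7 and CEP57 at 23.8. HCC1937 controls had the same gene first, at 34.8 CPM per kb, followed by CEP57 at 26.1, CEP170B at 26.03 and CNTROB at 23.6. With extract CNTROB led in MDA-MB-231 at 32.8 CPM per kb, followed by CEP20 at 18.9 and CEP55 at 12.6. In HCC1937 with extract CEP170B led at 37.8, followed by CNTROB at 33.2 and CEP85 at 15.5. PLK4 was at 5.05 and 11.6 CPM per kb in the untreated lines and at 1.54 and 1.97 with extract, CEP152 at 5.62 and 4.15 and then at 0.188 and 0.456.

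Other genes of the pathway, outside the family, were counted from lists by function. Over all tested genes 32.8% were called lower and 33% higher in MDA-MB-231, and 39.1% and 32.7% in HCC1937. The lists were chosen with extract results known, so their counts are descriptions. Of 13 tested satellite genes other than PCM1, 11 were called lower and 0 higher in MDA-MB-231 and 12 and 0 in HCC1937, with medians of -2.44 and -2.25, and -0.63 and -0.70 with the offset. In this group CCDC112, a satellite protein, had -4.10 and -4.37 (-3.57 and -3.45 with the offset), and PIBF1 -3.56 and -3.21. For SSX2IP and CCDC18, also satellite proteins, they were -2.28 and -2.25, and -2.72 and -3.17. Of 24 other genes for centriole assembly and length, 15 were called lower and 5 higher in MDA-MB-231 and 19 and 4 in HCC1937 (medians -0.75 and -1.40). CENPJ, which adds tubulin to the growing centriole, had -3.45 and -2.85 and CCP110, which caps it, -3.21 and -2.77. With the offset these were -2.64 and -1.76, and -1.82 and -1.14. CCDC14 had -3.90 and -2.92, and FAM161A -3.06 and -2.50.

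Of 30 transition zone and ciliary assembly genes, 18 were called lower and 5 higher in MDA-MB-231 and 20 and 3 in HCC1937 (medians -0.60 and -0.83). IFT80 and KIF3A, of the transport along the cilium, had -3.75 and -3.11 in MDA-MB-231 and -3.25 and -2.51 in HCC1937. AHI1, mutated in a ciliopathy, had -3.35 and -3.04. Among 13 other appendage genes 5 were called lower and 3 higher in MDA-MB-231 and 8 and 2 in HCC1937. ANKRD26, a distal appendage protein, had -4.70 and -3.63, and LRRC45, of linker and appendages, 0.65 and 0.95. CCDC68 and KIZ had -2.71 and -1.84 in MDA-MB-231, and -2.99 and -2.97 in HCC1937.

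Further lists covered microtubule nucleation, the spindle pole, separation and proliferation. Of 19 genes of the gamma-tubulin ring complex and augmin, 8 were called lower and 7 higher in MDA-MB-231 and 10 and 8 in HCC1937 (medians -0.23 and -0.24). NEDD1 and the augmin subunit HAUS6 had -2.25 and -2.72 in MDA-MB-231 and -2.45 and -2.37 in HCC1937, whereas the augmin subunit HAUS7 had 1.53 and 2.11. TUBGCP2, a ring complex subunit, was called lower in MDA-MB-231 (-0.59) and higher in HCC1937 (1.29). Of 20 maturation and spindle pole genes, 9 were called lower and 6 higher in MDA-MB-231 and 9 and 7 in HCC1937. AKAP9, a scaffold of centrosome and Golgi, had -4.18 and -3.37, and ASPM, of the spindle pole, -2.96 and -3.42. SPDL1, which brings dynein to kinetochores, had -2.32 and -3.02, and BORA, an activator of mitotic kinases, -1.09 and -1.83. The 8 linker and separation genes had 3 calls each way in both lines, with the motor KIF11 at -2.65 and -2.61. The kinases NEK7 and NEK2 had -1.42 and -1.01 in MDA-MB-231 and -2.99 and -1.61 in HCC1937, and SSNA1 1.48 and 1.99. Of 22 proliferation genes, 13 were called higher and 6 lower in MDA-MB-231 and 11 and 8 in HCC1937, with medians of 0.54 and 0.30, and 0.24 and -0.037 with the offset. MCM5 and MCM7, of the replicative helicase, had 1.003 and 0.84 in MDA-MB-231 and 1.47 and 1.34 in HCC1937. CCNE1, the G1/S cyclin, had 0.71 and 1.89, and MYBL2, a transcription factor of cycling cells, 1.26 and 1.43.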

How the data were processed

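RNA of 12 libraries was purified with poly-T beads and prepared with a stranded kit sold for total RNA, per the labels' protocols. The deposited values are estimated counts per gene made by the authors; FastQC 0.12.1, fastp 0.23.4, Salmon 1.10.3, DESeq2, R 4.4.1 and GRCh38 are named in the submitters' processing notes, and the annotation release is not given in the sources used here. Of the deposited estimated counts, 52.8% were not whole, and rounding moved a value by at most 0.5. The table held 19517 genes, of which 1 row had no symbol and no reads. How strand was used in counting is not given in the sources used here, so reads of overlapping genes may not be told apart.

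Genes were kept by edgeR's filterByExpr over the 4 groups (14133 genes). TMM scaling and edgeR's quasi-likelihood test (edgeR 4.0.16, R 4.3.3) were fitted once over all 12 libraries, with Benjamini-Hochberg adjustment over all tested genes and a threshold of 0.05. Standard errors were taken from the log2 fold change and the F statistic. CPM are TMM-scaled. Length and GC content came from the longest protein-coding transcript of GENCODE 29 (14051 genes, 99.4%), and the offset was a smooth surface per library (mgcv 1.9.3), followed by TMM. The scripts were tested on simulated data. The spread in them was estimated without E7, and any length and GC effect in them was the fitted surface itself. They therefore do not show whether that surface is right for these libraries.

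Members and gene lists were chosen with earlier results of these data known. Values in every library were given for the 8 members without a CEP number in their symbol, CEP152 and CEP192, for the 6 lowest and up to 6 highest called members of each extract comparison, and for the 4 largest called differences in each direction between effects and between untreated lines. Members whose call the offset ended or turned were named, as were up to 4 genes of each list with the smallest p. Further members were named after their values were seen, and 1 member that is counted is otherwise not reported here. Alternatives covered 20 settings, with DESeq2 1.42.0 beside edgeR. The offset without E7 was added after seeing the data.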

Additional observations from a re-analysis of the deposited data

Results flagged for a closer look

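The 15 centrosomal genes given here were listed because their extract effect was called different between the lines, so their number is not a result. The test was of the difference itself, HCC1937 minus MDA-MB-231 on the log2 scale, given with its SE. Over the family of 47 the difference was called higher for 7 genes and lower for 9, beside 11.5% and 20.6% of all genes. It is made from the fold changes on which the family was chosen. Each group held 3 libraries, and line, medium and extract concentration differ together. Differences below 0 were -1.41 ± 0.27 for CEP19 (edgeR adjusted p = 0.00212), -0.61 ± 0.17 for CEP41 (edgeR adjusted p = 0.0164), -1.19 ± 0.25 for CEP72 (edgeR adjusted p = 0.00383), -0.89 ± 0.18 for CEP20 (edgeR adjusted p = 0.00335), -0.94 ± 0.17 for CEP76 (edgeR adjusted p = 0.00169), -0.84 ± 0.12 for CEP78 (edgeR adjusted p = 2.93e-04), -0.88 ± 0.25 for PLK4 (edgeR adjusted p = 0.0211) and -0.60 ± 0.21 for CEP95 (edgeR adjusted p = 0.0469). Differences above 0 were 1.61 ± 0.34 for CEP152 (edgeR adjusted p = 0.00371), 1.12 ± 0.26 for SASS6 (edgeR adjusted p = 0.00712), 1.03 ± 0.24 for PCM1 (edgeR adjusted p = 0.00646), 0.92 ± 0.19 for CEP170 (edgeR adjusted p = 0.00368), 0.58 ± 0.20 for NIN (edgeR adjusted p = 0.0442) and 0.42 ± 0.14 for CEP68 (edgeR adjusted p = 0.0384). The value for CEP112 was 4.75 ± 1.30 (edgeR adjusted p = 0.0159), but HCC1937 had 2 reads over its controls and 9 with extract, and without E31 the call ended at 2.45 (edgeR adjusted p = 0.380). Of 19 alternatives, the call held under 5 for CEP95, 8 for CEP68, 10 for NIN, 16 for PLK4, 17 for CEP41 and 18 each for CEP170 and PCM1, and under every one for CEP19, CEP20, CEP72, CEP76, CEP78, CEP152 and SASS6. The offset ended the calls for CEP41, CEP68, CEP95 and PLK4, DESeq2 that for CEP95, and library totals only those for CEP68, CEP170, NIN and PCM1.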

How the results depend on the processing

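Of 83 values of named genes in a comparison, 42 kept their direction and side of the threshold under every alternative run. Leaving out 1 library at a time gave 2 to 9 members higher and 30 to 33 lower in MDA-MB-231, 1 to 2 higher and 33 to 35 lower in HCC1937, and 13 to 15 higher and 12 to 14 lower between untreated lines. Over all genes the ranges were 4209 to 5339 higher and 4242 to 5334 lower in MDA-MB-231. In HCC1937 they were 4252 to 4436 and 5130 to 5234, and between untreated lines 5120 to 5191 and 4783 to 4865. For the difference of effects, leaving out 1 library gave 5 to 14 members higher and 7 to 17 lower, and 1344 to 3579 genes higher and 2346 to 4761 lower over all genes, the highest counts being those without E7. Members higher in MDA-MB-231 were 6 in the reported fit, 1 with library totals only, 3 with upper-quartile scaling and 3 when only the groups compared were fitted. Members higher in HCC1937 were 2 in the reported fit, 6 with the offset, 0 with library totals only, 1 without the low-count filter, 1 with upper-quartile scaling and 5 when only the groups compared were fitted. Over all genes, 4625 were higher in HCC1937 and 2877 with library totals only. For the difference of effects, members higher were 7 in the reported fit, 15 with DESeq2, 13 with DESeq2 size factors in edgeR, 13 with the offset, 17 with the offset and E7 left out, and 3 with library totals only. Members lower were 9, and 15 with the offset and E7 left out. Over all genes the difference was higher for 1630 genes, 3231 with the offset and E7 left out and 1049 with library totals only, and lower for 2909, and 4715 with the offset and E7 left out. Between untreated lines 14 members were higher, and 23 when only the groups compared were fitted. Such fits of HCC1937 and of the untreated lines hold no E7. Among the named values followed through the alternatives, signs turned with the offset for CNTROB (-0.34 in MDA-MB-231, -0.27 with E7 left out too, and -0.15 in HCC1937), CEP131 (-0.066 in MDA-MB-231), CEP78 (1.05 in MDA-MB-231, 0.97 with E7 left out too, and 0.25 in HCC1937), CEP20 (0.12 in HCC1937), CEP76 (0.22 in HCC1937) and CEP135 (0.12 between untreated lines). Among the other members, values not called without the offset turned sign and were called with it for CEP20 in MDA-MB-231 (0.49), for CEP15 (1.23), CEP41 (0.63) and CEP131 (-0.40) in HCC1937, and for CEP131 between untreated lines (-0.43). STIL in MDA-MB-231 turned to 0.044 with the offset and E7 left out, and CEP89 in HCC1937 to -0.22 with library totals only. The cause of these changes was not tested. With library totals only, the share of higher calls moved from 50.2 to 36.4% in MDA-MB-231, from 45.6 to 29.1% in HCC1937 and from 35.9 to 22.8% for the difference of effects. No paired analysis was possible because the library numbers are not shared between groups. Depth limits CEP112 and CEP85L in HCC1937 and CEP295NL in both lines.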
